A study of Mus musculus with 15 samples.

Results

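The immune checkpoint genes described here are the receptors *Pdcd1*, *Ctla4*, *Lag3*, *Havcr2*, *Tigit* and *Cd28* and the ligands *Cd274*, *Pdcd1lg2*, *Cd80* and *Cd86*, 10 of the 18279 genes measured by bulk RNA sequencing in 15 tumors of Renca cells. They were chosen by symbol as the best known inhibitory receptors of T cells, their ligands and the activating counterpart *Cd28*, and each of the 10 was found in the table. Renca is a mouse renal carcinoma cell line of BALB/c origin. The tumors grew under the skin of the back in female BALB/c mice of 4 to 6 weeks, and comprised 5 control tumors and 5 tumors of each of the *Pbrm1* knockout clones 4 and 18. *Pbrm1* encodes a subunit of the PBAF chromatin remodeling complex. The knockout cells were transfected with CRISPR/Cas9 and repair plasmids, selected with puromycin and sorted as single cells, so each knockout group is 1 clone and genotype and clone history cannot be told apart. The sample labels call the control cells parental, whereas the series design and the methods call them control knockout cells that received a control plasmid. Each mouse was left untreated or received a PD-1 antibody, and the sources used here do not give the treatment of each tumor. Mice were killed when the tumor reached 1000 mm3, at ulceration or at distress. In the sequenced tumors *Pbrm1* RNA in the knockout group was 31.0% of the control mean, 2795 ± 205 normalized counts (SD, n = 10) against 9012 ± 956 (n = 5), with each knockout tumor below each control tumor (adjusted p = 2.94e-11, limma).

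T cells carry a receptor that recognizes antigen and a set of second receptors that tune the response. CD28 binds CD80 and CD86 on antigen presenting cells and promotes activation, and CTLA-4 binds the same ligands more tightly and restrains it. PD-1, encoded by *Pdcd1*, appears on activated and exhausted T cells and restrains them when it meets PD-L1 (*Cd274*), which tumor cells and macrophages make under interferon gamma, or PD-L2 (*Pdcd1lg2*), which is found mostly on dendritic cells and macrophages. LAG-3 binds MHC class II, TIM-3 (*Havcr2*) is found on T cells and also on macrophages and dendritic cells, and TIGIT competes with CD226 for the nectin-like ligand PVR.

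Of the 10 genes, *Pdcd1* and *Ctla4* fell in the knockout tumors, none rose, and *Cd28*, *Lag3*, *Tigit*, *Havcr2*, *Cd86*, *Cd80*, *Cd274* and *Pdcd1lg2* did not pass the test. Mean RNA in the knockout tumors came to 24.3% of control for *Pdcd1* and 25.8% for *Ctla4*. Over all 18250 genes tested, 22.1% passed in this comparison, 12.9% as lower and 9.23% as higher, so 2 of 10 is near the background and is not a result about these genes as a group. The median difference of the 10 genes was -0.40 on the log2 scale, beside -0.02 over all genes tested. Here and below, a difference is one in mean log2(normalized count + 1) from limma, which understates changes of genes with few reads, an adjusted p is Benjamini-Hochberg corrected over all genes tested, and the threshold is 0.05. The genes differ widely in depth, from *Cd274*, with at least 1526.4 normalized counts in each tumor, to *Ctla4* and *Tigit*, at 0 in some tumors.

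The upstream sequences of *Pdcd1* and *Ctla4*, which fell, and of *Cd274*, which did not pass, are shown as the DNA next to the start of each transcript (250 bases before the RefSeq start, build GRCm38.p6, 5′ to 3′ on the gene's strand). *Pdcd1* lies on the minus strand (chr1:94052554-94052803), *Ctla4* on the plus strand (chr1:60908775-60909024) and *Cd274* on the plus strand (chr19:29367188-29367437). Capitals mark matches on either strand to the motif letters searched, which were GAAANNGAA (IRF), TGGAAA (NFAT core), TGANTCA (AP-1) and GGGCGG (SP1).
Pdcd1: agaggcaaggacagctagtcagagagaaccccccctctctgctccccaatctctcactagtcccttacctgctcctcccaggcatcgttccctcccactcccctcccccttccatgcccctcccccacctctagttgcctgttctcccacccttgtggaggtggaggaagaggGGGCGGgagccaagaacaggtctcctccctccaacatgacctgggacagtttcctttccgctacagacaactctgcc
Ctla4: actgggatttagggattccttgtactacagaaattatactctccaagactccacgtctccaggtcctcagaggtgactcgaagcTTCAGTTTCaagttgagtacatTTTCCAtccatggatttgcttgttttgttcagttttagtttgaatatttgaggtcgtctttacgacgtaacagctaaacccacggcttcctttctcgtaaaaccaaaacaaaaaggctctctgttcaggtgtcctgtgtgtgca
Cd274: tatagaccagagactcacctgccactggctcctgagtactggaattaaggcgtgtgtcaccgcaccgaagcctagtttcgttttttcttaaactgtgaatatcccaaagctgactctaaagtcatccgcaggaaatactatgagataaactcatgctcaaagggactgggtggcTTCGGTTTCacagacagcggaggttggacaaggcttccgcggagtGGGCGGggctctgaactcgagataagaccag
*Pdcd1* held 1 SP1 match, whose first base was at -77 from the start. *Ctla4* held an IRF match at -166 and an NFAT core match at -144, and *Cd274* held an IRF match at -76 and an SP1 match at -31. Of the 32851 promoters of the same length, 7.13% held the IRF letters, 18.6% the NFAT core, 6.75% the AP-1 letters and 32.7% the SP1 letters. Of the 7 genes with a promoter entry, *Havcr2* (-200) and *Cd80* (-42) held AP-1 letters. *Lag3*, *Cd86* and *Cd28* had no entry. No match overlapped another. The RefSeq starts of *Ctla4* and *Cd80* lie inside the longer gene spans of the GENCODE annotation used for the positions below. A match is a description of letters and not a site of binding, and a missing match says only that these letters are not in this window.

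*Pdcd1* (PD-1; ENSMUSG00000026285, GRCm38 chromosome 1, 94038305 to 94052553, minus strand) had 113.7, 25.5, 33.4, 69.5 and 52.9 normalized counts in control tumors 1 to 5. In clone 4 it had 8.7, 13.4, 15.9, 14.8 and 22.3, and in clone 18 it had 11.2, 18.5, 13.1, 12 and 13.4. The highest knockout tumor, at 22.3, lay below the lowest control tumor, at 25.5, and clone 18 lay within the range of clone 4. The means were 59.0 ± 35.1 (SD, n = 5) in control tumors and 14.3 ± 3.86 (n = 10) in knockout tumors. The difference was -1.81 (SE 0.31, 95% interval -2.46 to -1.17, adjusted p = 0.000403, limma). No other split of the tumors gave a difference as large (exact permutation test, two-sided, p = 0.000333, the smallest it can give). Over all genes, 4.87% had each knockout tumor below each control tumor. *Pdcd1* passed in each clone separately, with a difference of -1.77 in clone 4 (adjusted p = 0.00249, limma) and -1.86 in clone 18 (adjusted p = 0.00123, limma), comparisons that share the 5 control tumors. Without control tumor 1, the highest of the 15, the difference was -1.53, and the adjusted p stayed at or below 0.0023 in each of the 15 limma fits that left out 1 tumor.

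*Ctla4* (CTLA-4; ENSMUSG00000026011, chromosome 1, 60887000 to 60915832, plus strand) had 33.7, 15, 5.6, 16.8 and 19 normalized counts in the control tumors. In clone 4 it had 2.9, 5.7, 1, 0 and 6.7, and in clone 18 it had 6.1, 14.8, 5.2, 3 and 1.1. All 10 knockout tumors were below the control mean, 6 of 10 were below the lowest control tumor, and the groups overlapped through control tumor 3, at 5.6. The difference was -1.95 (SE 0.55, adjusted p = 0.0167, limma; exact permutation p = 0.00666, two-sided). In clone 4 it was -2.33 (adjusted p = 0.0154, limma) and in clone 18 -1.56 (adjusted p = 0.0775, limma), and the clones themselves differed by 0.77 (95% interval -0.54 to 2.09, adjusted p = 0.555, limma). The call in the knockout comparison was lost without control tumor 1 (-1.68, adjusted p = 0.0580, limma) and with a pseudocount of 0.1 in place of 1 (-2.51, adjusted p = 0.0502, limma). In clone 18 it passed with a pseudocount of 5 (-1.06, adjusted p = 0.0397, limma), without control tumor 3 (-1.90, adjusted p = 0.0437, limma) and without clone 18 tumor 12 (-1.93, adjusted p = 0.0363, limma).

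**Figure D1:**
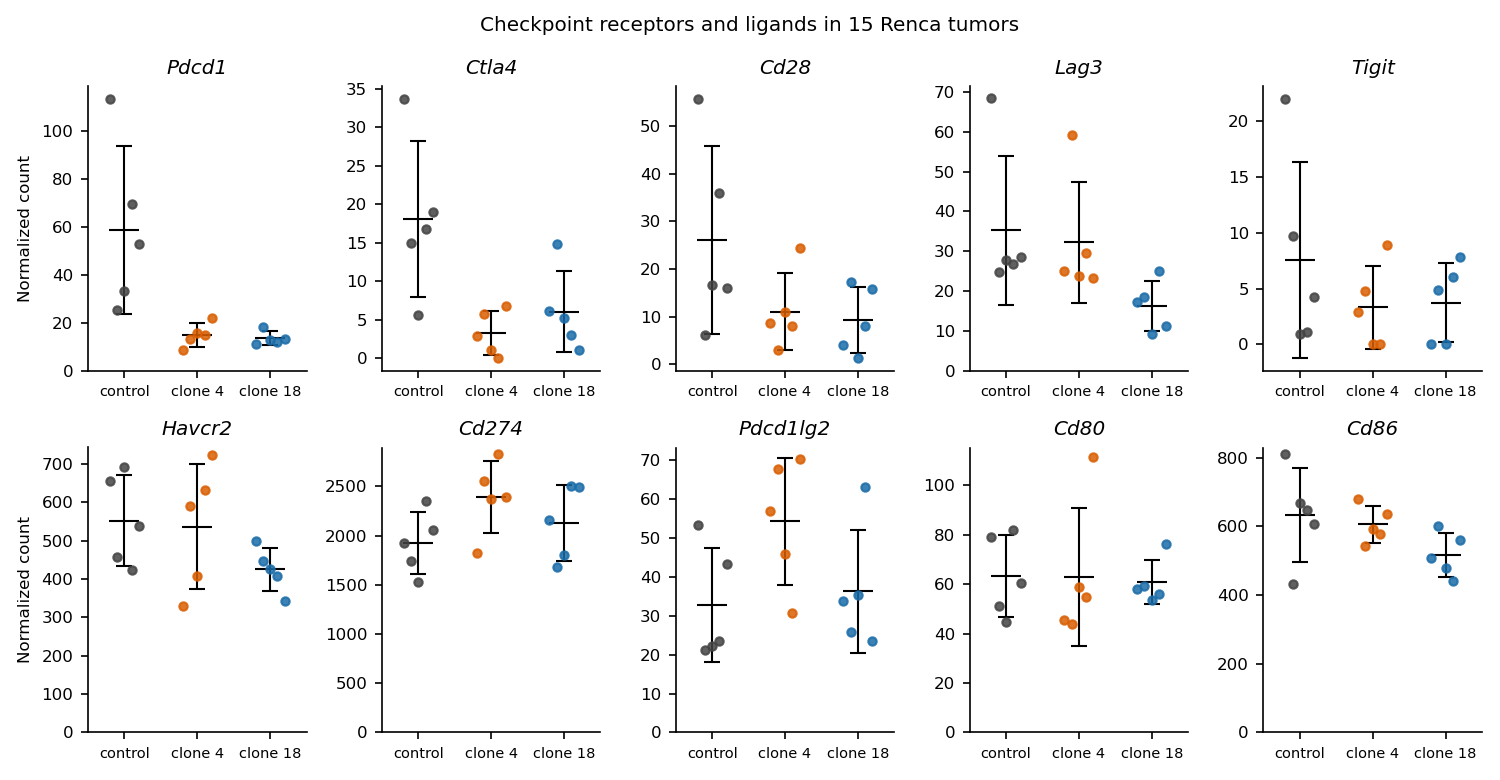
Normalized counts (y axis, linear) of the 10 checkpoint genes in control, clone 4 and clone 18 tumors, 1 point per tumor, with mean ± SD (n = 5 per group). For *Pdcd1* the 10 knockout tumors, at 8.7 to 22.3, sit below the 5 control tumors, at 25.5 to 113.7, while the groups overlap for each of the other 9 genes.

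*Cd28* (the activating receptor; ENSMUSG00000026012, chromosome 1, 60716800 to 60773359, plus strand) had 55.7, 6.2, 16.7, 35.9 and 15.9 normalized counts in the control tumors. Clone 4 had 8.7, 2.9, 10.9, 8 and 24.5, and clone 18 had 4.1, 17.2, 1.3, 8 and 15.7. Each knockout tumor was below the control mean of 26.1, but the groups overlapped between 6.2 and 24.5. The difference was -1.26 (SE 0.55, 95% interval -2.41 to -0.11, adjusted p = 0.112, limma), which did not pass. Without control tumor 2 it was -1.65 and passed.

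*Lag3* (LAG-3, the MHC class II receptor; ENSMUSG00000030124, chromosome 6, 124904361 to 124911705, minus strand) had 68.5, 24.7, 27.8, 26.9 and 28.5 normalized counts in the control tumors. In clone 4 it had 25.1, 59.2, 23.9, 29.6 and 23.4, and in clone 18 it had 17.3, 18.5, 9.2, 25.1 and 11.2. Apart from 1 high tumor in each, control and clone 4 lay in the same range, and 4 of the 5 clone 18 tumors lay below each tumor of both other groups. *Lag3* passed in clone 18 (-1.04, SE 0.35, adjusted p = 0.0401, limma; exact permutation p = 0.0159, two-sided), where 24.7% of all genes passed and 14.2% were lower. It did not pass in clone 4 (-0.11, adjusted p = 0.885, limma). The direct comparison of the clones gave -0.93 (95% interval -1.68 to -0.19, unadjusted p = 0.0172, adjusted p = 0.157, limma), so the difference between the clones did not pass. The clone 18 call was lost without control tumor 1, 3 or 5 or clone 18 tumor 11, 13 or 15 (adjusted p = 0.0546 to 0.114, limma).

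*Tigit* (TIGIT; ENSMUSG00000071552, chromosome 16, 43648867 to 43664146, minus strand) was close to the limit of detection, with 22, 9.7, 0.9, 1.1 and 4.2 normalized counts in control tumors. Clone 4 had 2.9, 4.8, 0, 0 and 8.9, and clone 18 had 0, 4.9, 0, 6 and 7.8. It was at 0 in 4 of 10 knockout tumors and at about 1 read in 2 of the 5 control tumors, and the difference of -0.83 did not pass (95% interval -2.37 to 0.71, adjusted p = 0.464, limma). *Havcr2* (TIM-3; ENSMUSG00000020399, chromosome 11, 46454935 to 46481255, plus strand) was far more abundant. It had 654.5, 457.1, 690.8, 422.4 and 537.1 normalized counts among the controls, 328.8, 589.6, 408.8, 632.6 and 723 in clone 4 and 499, 446.6, 425.4, 409 and 343.7 in clone 18. The groups overlapped, with clone 4 holding both the lowest and the highest tumor (difference -0.22, SE 0.18, adjusted p = 0.419, limma).

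Among the ligands, *Cd274* (PD-L1; ENSMUSG00000016496, chromosome 19, 29367455 to 29388095, plus strand) had 1923, 1744.8, 1526.4, 2356.5 and 2061.8 normalized counts in the control tumors. Clone 4 had 1825.5, 2554.3, 2376.3, 2830.8 and 2390.6, and clone 18 had 2158.4, 1677, 1803.8, 2508.9 and 2497.6. In clone 4, 4 of 5 tumors lay above the highest control tumor, and the mean of the 10 knockout tumors was 118% of control. The difference of 0.23 did not pass (SE 0.12, 95% interval -0.03 to 0.49, adjusted p = 0.198, limma), and in clone 4 it was 0.32 (unadjusted p = 0.0331, adjusted p = 0.129, limma). Without clone 4 tumor 6, the clone 4 tumor with the least *Cd274*, it was 0.41 and passed (adjusted p = 0.0483, limma). *Pdcd1lg2* (PD-L2; ENSMUSG00000016498, chromosome 19, 29410919 to 29471161, plus strand), which starts 22823 bases past the end of *Cd274*, had 53.4, 21.1, 22.3, 23.5 and 43.4 in control tumors. Clone 4 had 56.9, 67.8, 45.8, 30.7 and 70.2, and clone 18 had 33.7, 25.8, 35.3, 63.1 and 23.5. The clone 4 mean was 166% of the control mean (0.76, adjusted p = 0.136, limma) and the clone 18 mean 111% (0.16, adjusted p = 0.777, limma), and neither passed. The annotation places a gene on the opposite strand over part of *Cd274* and a different one over part of *Pdcd1lg2*. It places a pseudogene on the same strand over part of *Ctla4*. The strand setting of the counting is not given in the sources used here, so reads of such overlapping genes cannot be told apart.

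*Cd80* (ENSMUSG00000075122, chromosome 16, 38455561 to 38496335, plus strand) and *Cd86* (ENSMUSG00000022901, chromosome 16, 36603869 to 36666081, minus strand) encode the shared ligands of CD28 and CTLA-4. *Cd80* had 78.9, 51.1, 44.5, 81.8 and 60.3 normalized counts among the controls, 45.3, 44, 58.7, 54.6 and 111.4 in clone 4 and 58.2, 59.1, 53.7, 56.1 and 76.1 in clone 18. The 3 means were 63.3, 62.8 and 60.6, and the difference was -0.05 (95% interval -0.50 to 0.41, adjusted p = 0.910, limma). *Cd86* had 811.2, 432.4, 668.6, 647.7 and 606.9 among the controls, 680.8, 542.8, 592.8, 576.9 and 636.1 in clone 4 and 508.2, 601.7, 477.8, 440 and 560.9 in clone 18. All knockout tumors lay inside the control range, and the difference was -0.15 (95% interval -0.42 to 0.11, adjusted p = 0.420, limma). In clone 18 *Cd86* passed without control tumor 2, the lowest control tumor (-0.40, adjusted p = 0.0166, limma). *Cd80*, *Cd86* and *Tigit* lie on chromosome 16, whose 485 genes with a mean of at least 10 normalized counts had a median difference of -0.20 in the knockout tumors and -0.27 in clone 18, beside -0.01 over the 16027 such genes with a known chromosome in the knockout comparison. The part of that shift in the values of these genes was not tested.

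**Figure D2:**
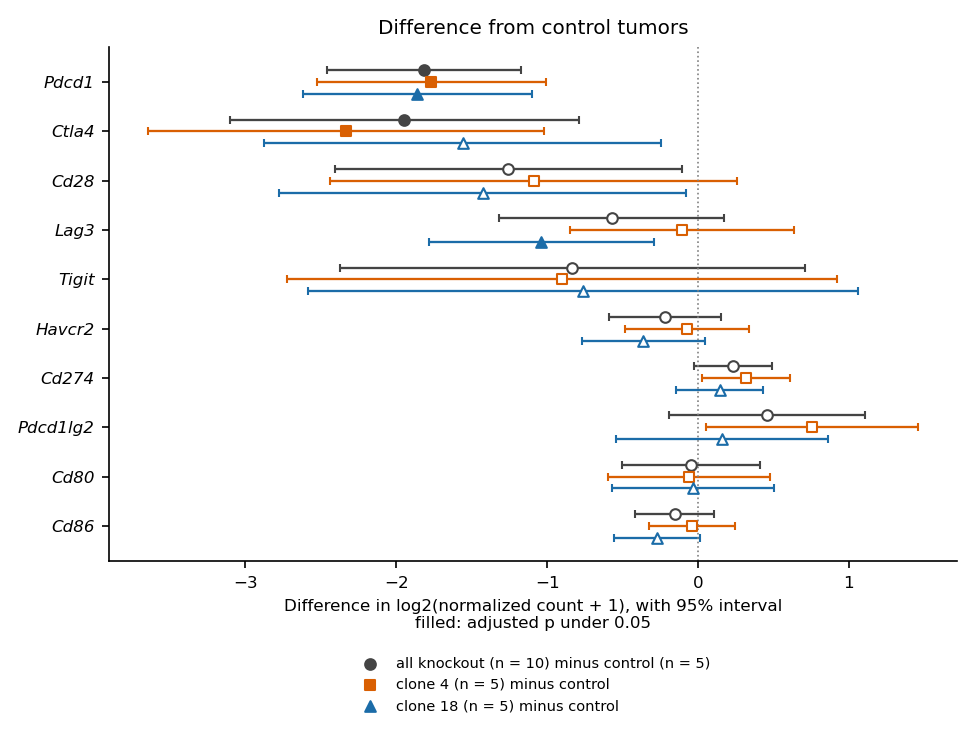
Difference from the control tumors in log2(normalized count + 1) (x axis) for each checkpoint gene (rows), with 95% intervals from limma, for all knockout tumors, clone 4 and clone 18. Filled symbols have an adjusted p under 0.05, and they are *Pdcd1* in each comparison, *Ctla4* in all knockout tumors and clone 4, and *Lag3* in clone 18.

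In clone 4 against control 2 of the 10 genes passed, beside 16.8% of all genes, and in clone 18 against control 2 passed, beside 24.7%. The median differences of the 10 genes were -0.09 and -0.56, beside -0.01 and -0.02 over all genes. Between the clones 0 of the 10 passed with limma, edgeR and DESeq2, beside 4.62%, 4.51% and 7.73% of all genes, and 1 (*Lag3*) had an unadjusted p under 0.05 with each tool.

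Per kilobase of exon, *Cd274* was the most abundant of the 10 genes in control tumors, at 531 ± 86.9 normalized counts per kilobase (SD, n = 5). *Havcr2* (203 ± 43.4) and *Cd86* (173 ± 37.2) came next and overlapped each other, and both were apart from *Cd274* above and *Pdcd1* below (30.6 ± 18.2). *Pdcd1*, *Cd80* (17.1), *Lag3* (16.7), *Pdcd1lg2* (16.7), *Tigit* (8.25), *Ctla4* (7.73) and *Cd28* (4.26) followed in an order in which each overlapped the next. The same 3 genes led in both clones, but *Pdcd1* moved from rank 4 to rank 7, at 7.78 per kilobase in clone 4 and 7.07 in clone 18, and *Pdcd1lg2* took rank 4. These ranks are not distinct positions. In both clones *Pdcd1lg2* overlapped *Cd80*, the next gene, and *Pdcd1* overlapped its neighbours *Lag3* and *Tigit*. The level of *Cd274* per kilobase was 9.01 to 36.5 times that of *Pdcd1* in control tumors (median 20.8) and 48.3 to 112 times in knockout tumors (median 100.4), without overlap. For *Pdcd1lg2* the ratio to *Pdcd1* was 0.333 to 0.814 in control tumors and 1.37 to 6.44 in knockout tumors, again without overlap. Both ratios contain *Pdcd1*, so neither is independent of its fall, and they are given with no test. The ratio of *Cd86* to *Cd28* overlapped, at 24.4 to 117 in control tumors and 43.4 to 615 in knockout tumors.

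T cell RNA moved in the same direction as *Pdcd1*. The summed *Cd3d*, *Cd3e* and *Cd3g*, which encode chains of the T cell receptor complex, gave 326.1, 31.7, 77.8, 107.5 and 107.9 normalized counts among the controls, 14.5, 38.2, 11.0, 15.9 and 53.5 in clone 4 and 27.6, 35.7, 18.3, 15.0 and 25.8 in clone 18, from 36 to 281 reads in a control tumor and 11 to 48 in a knockout tumor. In bulk tumor RNA, fewer T cells and less RNA of a gene per T cell cannot be told apart. Of 18 T cell markers, 8 fell, 0 rose and 10 did not pass, with a median difference of -1.35. Over all genes, 12.9% passed as lower and 9.23% as higher between knockout and control tumors. The summed level of the 18 markers ranged from 718.5 to 2801.4 among control tumors, from 793 to 1265.1 in clone 4 and from 701.4 to 938.3 in clone 18, with none at 0 in all tumors of a group. That sum is weighted toward abundant genes. *Lck* had means of 493 in control and 471 in knockout tumors (-0.06), *Cd4* had 288 and 150 (-0.91), and *Cd3g* had 71.9 and 11.6 (-2.30). Of 12 macrophage markers, 7 fell and 1 rose (median -0.43), with sums of 93355 to 124081, 77285 to 97471 and 69950 to 90977. Of 8 dendritic cell markers 1 fell (median -0.19), of 6 NK cell markers 1 (-1.04), of 5 B cell markers 3 (-1.11) and of 5 neutrophil markers 1 (-0.60). Of 4 keratin and Pax genes that mark renal carcinoma cells, abundant in each group (summed level 69161.7 to 105352.6), 1 fell (median -0.21), and mast cell, endothelial and keratinocyte markers gave 0 calls.

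Skeletal muscle markers gave 0 calls in the knockout comparison, with a median difference of 2.13 over 5 genes, and their sum set 5 knockout tumors apart. It was 104.7 to 211.5 normalized counts in control tumors. In clone 4 it was 529.1 and 1034.8 in tumors 9 and 10 and 80.6 to 90.8 in the others, and in clone 18 it was 1489.0, 1038.4 and 1326.6 in tumors 11, 14 and 15 and 110.8 and 141.4 in the others. *Ckm*, the creatine kinase of muscle, passed in clone 18 (2.69, adjusted p = 0.0346, limma), a gene singled out after its values were seen. Without those 5 tumors, a choice also made after the data were seen, *Pdcd1* had a difference of -1.85 in knockout tumors (adjusted p = 0.00643, limma), -1.98 in clone 4 (adjusted p = 0.0133, limma) and -1.66 in clone 18 (adjusted p = 0.0442, limma). *Ctla4* no longer passed in knockout tumors (-1.60, adjusted p = 0.0695, limma) and passed in clone 4 (-2.16, adjusted p = 0.0300, limma), and *Lag3* no longer passed in clone 18 (-1.25, adjusted p = 0.0999, limma). The fit held 3 clone 4 and 2 clone 18 tumors, and 17.1% of all genes passed in knockout tumors, 13.4% in clone 4 and 17.5% in clone 18.

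Of these marker lists only the T cell level was entered in a fit as a covariate, and the part of the others in the values of the checkpoint genes was not tested.

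Divided by the summed *Cd3* genes, *Pdcd1* overlapped between the groups. It was 34.9% to 80.4% of the *Cd3* sum in control tumors (median 49.0%) and 35.1% to 145% in knockout tumors (median 56.0%), with 0 of 10 knockout tumors below each control tumor. *Ctla4* was 7.20% to 47.3% in control tumors (median 15.6%) and 0% to 41.5% in knockout tumors (median 17.5%). *Lag3* had a median of 26.4% among the controls, 173% in clone 4 and 51.8% in clone 18. *Pdcd1lg2* per *Cd3* in all 10 knockout tumors exceeded each control tumor (72.3% to 421% against 16.4% to 66.6%), as did *Cd80* and *Cd86* in 9 of 10 and *Cd274* in 8 of 10. Receptors stood higher as well, with *Havcr2* above each control tumor in 7 of 10 (median 2038% against 498%), *Cd28* in 7 of 10 (49.2% against 19.6%) and *Lag3* in 5 of 10. The *Cd3* sum was itself lower in the knockout tumors, so a gene whose level did not move gives a higher ratio there. These are ratios to small numbers of reads and are given with no test.

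With the log2 *Cd3* sum as a covariate in the limma fit, 0 of the 10 genes passed between knockout and control tumors, beside 6.25% of all genes. The difference in *Pdcd1* was -0.81 (95% interval -1.58 to -0.03, unadjusted p = 0.0418, adjusted p = 0.210, limma) and that in *Ctla4* was -0.47 (95% interval -2.03 to 1.09, adjusted p = 0.778, limma). *Pdcd1lg2* had the largest positive value, 0.98 (unadjusted p = 0.0483, adjusted p = 0.226, limma). The median over the 10 genes was 0.19, beside 0.02 over all genes. Another fit replaced the log2 *Cd3* sum with the mean of log2(normalized count + 1) over all 18 T cell markers. In it 1 gene, *Pdcd1*, passed (-1.01), beside 9.43% of all genes, so 1 of 10 is near the background. The interval for *Pdcd1* under the *Cd3* covariate spans a range from nearly no difference to a large one, and only control tumor 2, with a *Cd3* sum of 31.7, lay within the knockout range of 11.0 to 53.5. Without that tumor the fit with the *Cd3* covariate called 0.707% of all genes.

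**Figure D3:**
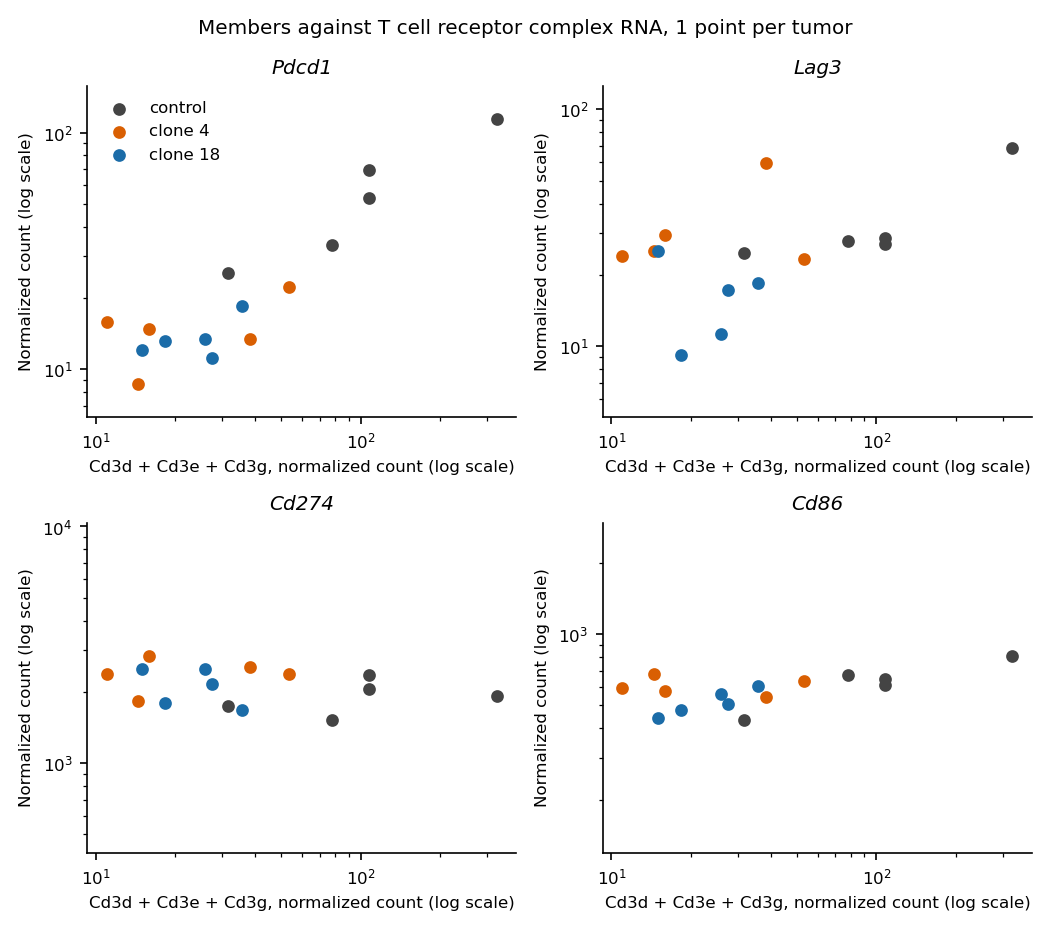
Normalized counts of *Pdcd1*, *Lag3*, *Cd274* and *Cd86* (y axes, log scale) against the summed *Cd3d*, *Cd3e* and *Cd3g* of the same tumor (x axis, log scale), 1 point per tumor, 5 per group. *Pdcd1* is high where the *Cd3* sum is high, with control tumor 1 at 113.7 and 326.1, while *Cd274* stays between 1526.4 and 2830.8 across the range of *Cd3*.

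The genes whose values followed each checkpoint gene most closely over the 15 tumors, after centring within groups, are given as a description over 16494 genes with a mean of at least 10 normalized counts. They are the highest r of that many genes over few tumors, so a high r can arise by selection alone. No test was made. For *Pdcd1* they were *Cd2* (Pearson r = 0.88), *Gcsam* (0.87) and *Trbc2* (0.85), of which *Cd2* and *Trbc2* are T cell genes. Without control tumor 1 these values were 0.87, 0.84 and 0.76. For *Cd86* they were the complement gene *C1qa* (0.93), the Fc receptor gene *Fcgr3* (0.92) and *Rnf130* (0.90), and for *Cd28* they were *Phf11b* (0.91), *Trim34a* (0.89) and the interferon regulatory factor *Irf7* (0.87). *Cd274* was followed by *Grpel2* (0.92), *Ift52* (0.92) and *Hdac11* (0.91), *Pdcd1lg2* by *Gm37893* (0.88), *Zfp341* (0.85) and *Gm37261* (0.82), and *Lag3* by *Zfp369* (0.88), *Psd4* (0.86) and *Fam234b* (0.84). *Havcr2* was followed by *1110051M20Rik* (0.94), *Matn2* (0.89) and *Cd109* (0.88), and *Cd80* by *Glipr1* (0.89), *Plekha2* (0.86) and *Pim1* (0.86). The 15 tumors share libraries across genes, and *Ctla4* and *Tigit* were below the minimum mean.

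Other genes of these pathways were taken from lists fixed by name. Over all genes, 12.9% passed as lower and 9.23% as higher in the knockout comparison, beside which the counts of each list stand. Of 9 other B7, CD28 and BTLA family genes 0 passed in the knockout comparison (median -0.43, beside -0.02 over all genes). *Icos*, a costimulatory receptor related to *Cd28*, had 30.4 ± 21.6 normalized counts in control tumors and 11.8 ± 6.66 in knockout tumors (-1.19, adjusted p = 0.106, limma), passed in clone 18 (-1.60, adjusted p = 0.0485, limma) but not in clone 4 (-0.78, adjusted p = 0.403, limma), and passed in the knockout comparison with edgeR and DESeq2. The difference between the clones did not pass for *Icos* (-0.82, adjusted p = 0.482, limma). Its ligand gene *Icosl* had -0.29 (adjusted p = 0.169, limma), and *Rgmb*, whose product binds PD-L2, had -0.22 (adjusted p = 0.0567, limma) and fell in clone 4 (-0.36, adjusted p = 0.0023, limma). In clone 18 *Rgmb* had -0.09 (adjusted p = 0.374, limma), and the clones differed (0.26, adjusted p = 0.0458, limma).

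Of 12 measured partners of *Lag3*, *Havcr2* and *Tigit*, 0 passed (median -0.23). *Pvr*, the ligand of TIGIT, had 3149 ± 605 normalized counts in control tumors and 2464 ± 521 in knockout tumors (-0.36, adjusted p = 0.0634, limma) and fell in clone 18 (-0.51, adjusted p = 0.0114, limma), beside -0.20 in clone 4 (adjusted p = 0.365, limma). The second ligand, *Nectin2*, differed by 0.01 (adjusted p = 0.932, limma), and the competing receptors *Cd226* and *Cd96* had -0.37 (adjusted p = 0.519, limma) and -1.71 (adjusted p = 0.169, limma). Of the TIM-3 ligands, *Lgals9* had 0.10 (adjusted p = 0.247, limma) and rose in clone 18 (0.18, adjusted p = 0.0373, limma), beside 0.03 in clone 4 (adjusted p = 0.817, limma). *Ceacam1* had -0.57 (adjusted p = 0.0675, limma) and fell in clone 4 (-0.82, adjusted p = 0.0163, limma), beside -0.31 in clone 18 (adjusted p = 0.331, limma). The difference between the clones did not pass for *Pvr* (-0.31, adjusted p = 0.235, limma), *Lgals9* (0.15, adjusted p = 0.176, limma) or *Ceacam1* (0.50, adjusted p = 0.229, limma).

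Of 7 measured TNF family costimulatory genes, 2 fell (median -0.25), beside 12.9% of all genes. *Cd40*, the receptor that licenses antigen presenting cells, had 1534 ± 227 normalized counts among the controls, 892 ± 49.4 in clone 4 and 629 ± 35.1 in clone 18. Each knockout tumor was below each control tumor (-1.02, SE 0.13, adjusted p = 2.77e-05, limma), as in 4.87% of all genes. The clones also differed from each other in *Cd40* (-0.50, adjusted p = 0.00325, limma). *Cd27*, a costimulatory receptor of T cells, had 20.2 ± 18.2 in control tumors and 4.3 ± 2.58 in knockout tumors (-1.89, adjusted p = 0.0106, limma). Of 7 myeloid checkpoint genes, among them *Cd47* and *Sirpa*, 0 passed (median 0.07).

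Of 17 regulators of T cell activation and exhaustion 3 fell and 0 rose (median -0.29), beside 12.9% and 9.23% of all genes. A count of 3 of 17 is near that background and is not a result about the list. *Tox*, a transcription factor of exhausted T cells, had 17.6 ± 17.6 normalized counts in control tumors and 2.16 ± 3.82 in knockout tumors (-2.63, adjusted p = 0.00917, limma). *Ptpn6*, the phosphatase SHP-1 of immune cells, had 3113 ± 523 and 2073 ± 301 (-0.59, adjusted p = 0.00106, limma). Each knockout tumor was below each control tumor, as in 4.87% of all genes. *Tcf7*, a transcription factor of memory-like T cells, passed narrowly (-0.76, adjusted p = 0.0401, limma) and lost its call in 9 of the 15 fits that left out 1 tumor each.

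Of 15 regulators of *Cd274*, 1 fell and 0 rose (median 0.05), beside 12.9% and 9.23% of all genes. *Ifngr2*, a chain of the interferon gamma receptor, had 3522.1 to 3981.2 normalized counts in control tumors and 2411.7 to 3522.3 in knockout tumors, 9 of 10 below each control tumor (-0.35, adjusted p = 0.00195, limma), whereas the other chain, *Ifngr1*, had 0.11 (adjusted p = 0.371, limma). Like *Cd80*, *Ifngr2* lies on chromosome 16, whose median difference in knockout tumors was -0.20. The part of that shift in its value was not tested. *Jak2* had 0.09 (adjusted p = 0.297, limma), *Irf1* 0.02 (adjusted p = 0.915, limma) and *Cmtm6*, which stabilizes PD-L1 protein, 0.02 (adjusted p = 0.852, limma). *Cd274* itself had the positive, uncalled difference given above.

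**Figure D4:**
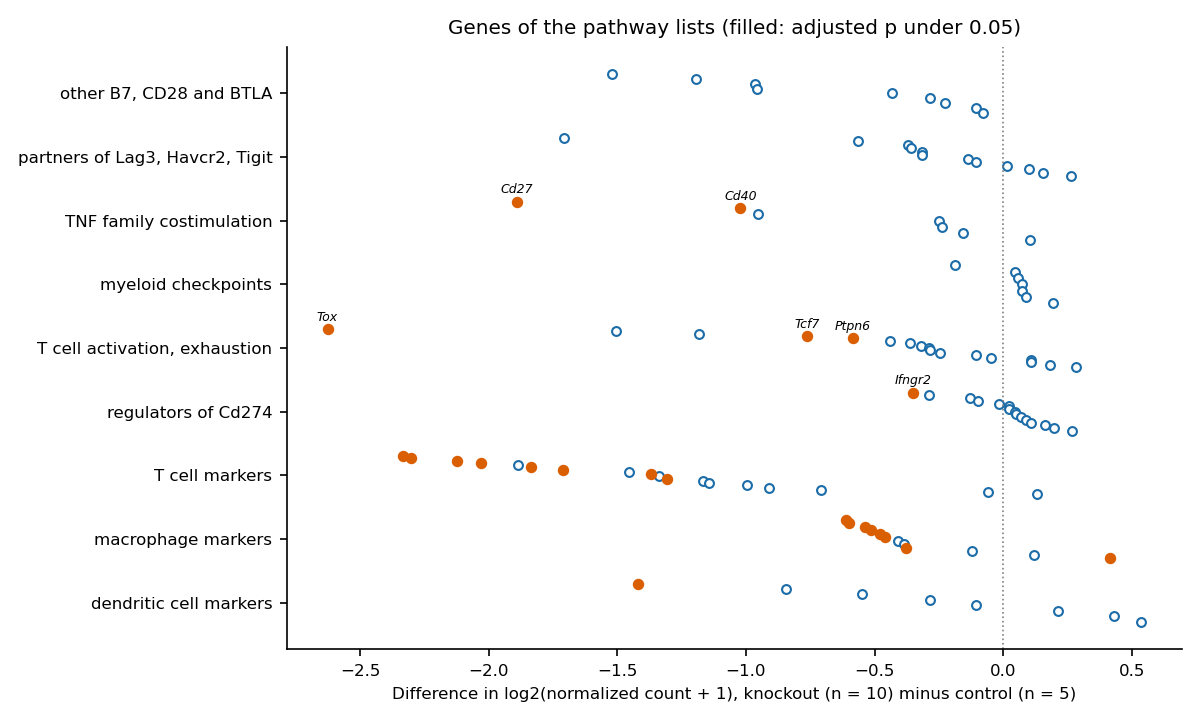
Difference in log2(normalized count + 1) between 10 knockout and 5 control tumors (x axis) for each measured gene of the pathway and marker lists (rows), 1 circle per gene. Filled circles have an adjusted p under 0.05, and in the pathway lists these are *Cd27*, *Cd40*, *Tox*, *Tcf7*, *Ptpn6* and *Ifngr2*, all lower in knockout tumors.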

How the data were processed

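RNA of 15 tumors was sequenced by the authors in bulk. The submitters' processing notes name TopHat2, mm10, HTSeq and DESeq, for alignment, gene counts and normalization. The versions, annotation, strand setting and gene filter are not given in the sources used here. The deposited table holds a signal, which is a gene's count over the tumor's size factor with 1 decimal (steps of 0.1), and 0 of its columns were unassigned. For each tumor 100% of entries no larger than 8000 fell within 0.06 of a multiple of 1 step, which gave back whole reads, 32924414 to 49099168 per tumor (median 40860659). In tumors 8 and 14 the step, 0.9947 and 1.0024, is so near 1 that it rests on the larger values. Tests used log2(normalized count + 1) in limma 3.58.1 with trend over 18250 genes (29 others were at 0 throughout), 10 knockout against 5 control tumors and the 3 groups in a second fit, with Benjamini-Hochberg adjustment. Permutation tests were exact and two-sided over all splits of the tumors. The labels give no batch or date. P-values of the clone comparisons measure the spread between tumors of 1 line per group. Those of the knockout comparison, permutation included, treat the 10 tumors of both clones as replicates, with no term for clone. edgeR 4.0.16 and DESeq2 1.42.0 ran on the recovered whole reads as alternatives, beside other pseudocounts, filters and normalizations and fits without each tumor. The checkpoint genes and the lists were chosen with earlier results of these data known. Named from each pathway list were up to 4 passing genes with the largest difference per direction, plus fixed binding partners and *Cd274* regulators. *Pvrig*, *Fgl1*, *Tnfsf4*, *Cd70*, *Cd40lg*, *Krt1* and *Krt10* were not matched, and some items are not reported here. Positions and exon lengths came from GENCODE on GRCm38, the same assembly as mm10.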

Additional observations from a re-analysis of the deposited data

Results flagged for a closer look

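Of 39 groups of 5 tumors tested, for the 10 genes and the summed T cell, macrophage and dendritic cell markers in each of the 3 groups, 4 held a tumor that stood apart from the other 4 by Dixon's criterion. For normally distributed values about 1.95 would be expected. The criterion was applied to counts without a log scale, and each tumor that stood apart was the highest of its group, so that figure is only a rough guide. *Lag3* was 68.5 normalized counts in control tumor 1, the tumor with the highest *Cd3* sum, beside 24.7 to 28.5 in the other control tumors. In clone 4 *Lag3* was 59.2 in tumor 7, beside 23.4 to 29.6. *Cd80* was 111.4 in clone 4 tumor 10, beside 44.0 to 58.7, and 76.1 in clone 18 tumor 15, beside 53.7 to 59.1.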

How the results depend on the processing

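No paired analysis was possible because no label links a tumor of one group to a tumor of another. The count of checkpoint genes past the threshold in knockout against control tumors was 2, and 1 with a pseudocount of 0.1 and with genes of a mean of at least 10 normalized counts (where *Ctla4* was not tested). The count in clone 4 was 1 with that filter, the count in clone 18 was 1 in the two-sample test without moderation and 3 with a pseudocount of 5, and the count with the T cell level as covariate was 1 with all T cell markers. Leaving out 1 tumor at a time gave 1 to 3 genes in the knockout comparison (1 without control tumor 1), 2 to 3 in clone 4 and 1 to 3 in clone 18. Leaving out the 5 tumors with more skeletal muscle RNA than any control tumor, chosen after seeing the data, gave 1 in the knockout comparison and 1 in clone 18. Without the T cell covariate *Pdcd1* passed against control under each of these alternatives, with adjusted p up to 0.0023 over the fits that left out 1 tumor in the knockout comparison (limma). With the *Cd3* covariate it did not pass in any such fit (adjusted p = 0.170 to 0.460, limma). Among the checkpoint genes, those called against control with edgeR and DESeq2 were those called with limma.

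Direction changed only for values that did not pass. With quantile normalization *Lag3* in clone 4 was 0.017, *Cd80* in clone 4 was 0.035, *Cd80* between the clones was -0.11 and *Lag3* with the T cell covariate was -0.022. *Cd80* in clone 18 was 0.0073 with upper quartile scaling, *Cd80* between the clones was -0.034 with edgeR and -0.036 with DESeq2, and *Cd28* was -0.14 with all T cell markers as covariate. Over the fits that left out a tumor, the knockout comparison gave -0.16 to 0.054 for *Cd80*, -0.018 to 0.058 for *Nectin2*, -0.088 to 0.16 for *Irf1* and -0.029 to 0.074 for *Cmtm6*. Clone 4 gave -0.35 to 0.16 for *Lag3*, -0.20 to 0.087 for *Havcr2*, -0.29 to 0.042 for *Cd80* and -0.17 to 0.057 for *Cd86*, and clone 18 gave -0.058 to 0.36 for *Pdcd1lg2* and -0.15 to 0.068 for *Cd80*. Between the clones the ranges were -0.26 to 0.055 for *Pdcd1*, -0.25 to 0.58 for *Tigit*, -0.076 to 0.25 for *Cd80* and -0.68 to 0.11 for *Cd28*. Without the 5 tumors with muscle RNA, *Lag3* in clone 4 was 0.018, *Cd274* and *Pdcd1lg2* in clone 18 were -0.13 and -0.0092, *Pdcd1*, *Havcr2* and *Tigit* between the clones were 0.32, 0.021 and -0.22, *Cd28* with the T cell covariate was -0.28, and *Nectin2* and *Irf1* in the knockout comparison were -0.021 and -0.030. With the T cell covariate, the fits that left out a tumor gave -0.85 to 0.55 for *Ctla4*, -0.33 to 0.17 for *Lag3*, -0.068 to 0.24 for *Cd86* and -0.41 to 0.59 for *Cd28*. The causes were not tested.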
